A study of Homo sapiens with 12 samples.

Results

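The mRNAs of cytosolic ribosomal proteins were examined in RNA that co-precipitated with Arid5a. The group was given as a fixed list of 60 Ensembl gene identifiers, 32 for proteins of the large subunit, from RPLP0 to RPL38, and 28 for the small subunit, from RPS2. All 60 were found among the 60708 features of the count table. The list was drawn up with no measured value in its rule. The identifiers are not paired with symbols in the files, so only RPLP0 (ENSG00000089157), RPL38 (ENSG00000172809) and RPS2 (ENSG00000140988), which the list itself names, are called by symbol here. The other 57 are given by identifier and subunit.

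The libraries came from RNA immunoprecipitation of HK2, an established line of human kidney epithelial cells. Every group, the controls included, had been transfected with 10 µg of plasmid for human Arid5a carrying a FLAG tag, so the precipitated protein was an introduced one. The sources used here do not name the plasmid's promoter. Antibody against FLAG pulled down the tagged protein, and mouse IgG1 served as the background control on lysates of equally transfected cells. Before lysis the cells had been kept for 3 h with IL-17, an inflammatory cytokine, at 200 ng/mL or with medium alone. This gave 4 groups of 3 libraries, IgG medium, FLAG medium, IgG IL-17 and FLAG IL-17. The comparisons ask which transcripts are recovered with Arid5a beyond IgG, and whether IL-17 changes that. The labels do not say whether replicates were separate cultures. The p-values thus refer to the spread among these libraries, which may be technical in origin. Kidney epithelial markers could not be read without symbols.

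Ribosomal proteins assemble with ribosomal RNA into the subunits that translate mRNA, the small subunit decoding the message and the large subunit joining amino acids. Their genes are expressed in all growing cells, and their mRNAs are short and abundant. Most of these mRNAs begin with a C followed by a run of pyrimidines, the 5′ terminal oligopyrimidine (TOP) motif, through which cells adjust the translation of the whole family together. Many of the genes carry small nucleolar RNAs in their introns, and many processed pseudogene copies of them lie elsewhere in the genome. Arid5a is a DNA-binding protein of the AT-rich interaction domain family that also binds RNA and is known for stabilising mRNAs of inflammatory cytokines.

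The start sites of the first and last listed large subunit genes are printed because they show the family's shared feature. RPLP0 encodes the P0 protein of the ribosomal stalk, and RPL38 encodes a small protein of the large subunit. Both sequences run 5′ to 3′ from 30 bases before to 20 bases after the annotated start, from RefSeq on GRCh38.p14. The capitals mark the pyrimidine run that begins at the annotated start.
RPLP0: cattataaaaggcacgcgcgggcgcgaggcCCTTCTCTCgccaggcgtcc
RPL38: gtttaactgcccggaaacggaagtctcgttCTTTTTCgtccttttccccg
The first lies on the minus strand at chr12:120201092-120201141, at the start of the gene at chr12:120196699-120201111. The second lies on the plus strand at chr17:74203648-74203697, at the start of the gene at chr17:74203678-74210655. The runs are 9 and 7 bases long. A C at the start followed by at least 4 further C or T was found at 44 of 70 ribosomal protein promoters in the RefSeq table (62.9%) and at 1104 of all 27305 promoters (4.04%). These letters describe the annotated starts and say nothing about binding.

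Total estimated counts ran from 746911 in IgG medium replicate 1 to 17723100 in FLAG IL-17 replicate 1, and the IL-17 libraries were deeper on average than the medium libraries. IgG medium replicates 1 and 2, FLAG medium replicate 1 and IgG IL-17 replicate 1 were set apart, and are called the 4 libraries that stand apart. No numeric limit was given for this choice, and it did not follow depth alone. IgG medium replicate 3, with 3803260 counts, was kept, whereas IgG medium replicate 2, with 6118340, was not. Values without these 4 libraries are given beside several comparisons, and leaving them out keeps 1 IgG medium library. The table of TPM values (a level per transcript length in which each library sums to 1000000) was dominated by very short features. Features with a relative length under 0.05, where 1 is the median over tested features, held 67.9% to 92.0% of all TPM. Less RNA per cell and fewer cells cannot be told apart in such bulk precipitates. A level in TPM also moves with the short features, and library-scaled counts (CPM, counts per 1000000) with composition factors from edgeR (TMM) were used to compare a gene between libraries.

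None of the 60 mRNAs was undetected in any library, 0 of 720 values being 0. In IgG medium replicate 1, the shallowest library, 5 of the 60 had fewer than 20 estimated counts. Together the 60 held 1.89, 1.49 and 2.02% of TPM in the IgG medium libraries and 1.75, 1.85 and 2.06% in the FLAG medium libraries. The shares were 0.486, 0.565 and 0.655% in IgG IL-17 and 0.661, 0.574 and 0.545% in FLAG IL-17. The group means were 1.80 ± 0.274%, 1.89 ± 0.158%, 0.569 ± 0.0842% and 0.593 ± 0.0603% (SD, n = 3 each), in that order. The medium and IL-17 libraries did not overlap on this measure, whereas FLAG and IgG libraries did within each treatment. Without the 4 most abundant, which had another profile over the libraries, the remaining 56 held 0.174, 0.903 and 0.52% in IgG medium, 0.307, 1.11 and 0.504% in FLAG medium, 0.291, 0.205 and 0.138% in IgG IL-17 and 0.506, 0.395 and 0.173% in FLAG IL-17, where medium and IL-17 libraries overlapped. The short features held more of the TPM in the IL-17 libraries on average, 89.6 ± 2.7% in IgG and 87.2 ± 2.88% in FLAG, against 79.4 ± 10.6% and 80.2 ± 6.73% in medium (SD, n = 3 each). With those features left out of the denominator, the 60 held means of 10.8% and 10.2% in IgG and FLAG medium and 5.84% and 4.77% with IL-17.

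**Figure D1:**
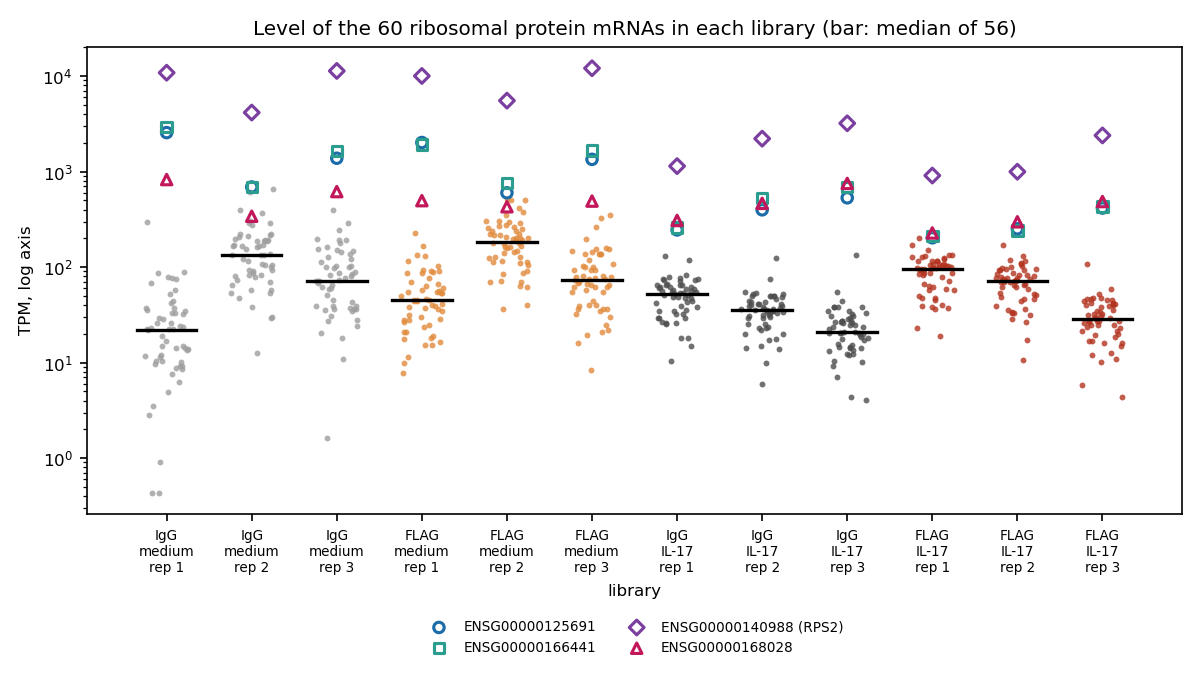
TPM of each of the 60 ribosomal protein mRNAs (log axis) in each of the 12 libraries; filled points are 56 mRNAs, black bars their median, and open symbols the 4 mRNAs with another profile over libraries. RPS2 is the highest of the 60 in every library, from 909 to 12077 TPM, while the median of the 56 lies between 21.0 and 185.

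RPS2, which encodes a small subunit protein near the mRNA entry channel, was the most abundant of the family by mean TPM. Its levels were 10842, 4151 and 11318 TPM in IgG medium, 10028, 5531 and 12077 in FLAG medium, 1141, 2212 and 3202 in IgG IL-17 and 909, 997 and 2391 in FLAG IL-17. It was lower in all 6 IL-17 libraries than in any medium library, and the FLAG and IgG libraries overlapped in both treatments. RPS2 alone made up from 13.7% of the family's TPM in FLAG IL-17 replicate 1 to 58.6% in FLAG medium replicate 3. It stood from 9.42 times the median of 56 other family mRNAs, in FLAG IL-17 replicate 1, to 490.0 times, in IgG medium replicate 1. Both proportions varied widely between replicates of a group. The RPS2 gene, at chr16:1962058-1964826 on GRCh38.p14, contains the small nucleolar RNA genes SNORA10 (chr16:1962334-1962466) and SNORA64 (chr16:1962973-1963106). In the reference, 29 of 87 ribosomal protein genes (33.3%) contain such a gene, against 526 of 20056 protein-coding genes (2.62%). Whether fragments of these RNAs entered the RPS2 value was not tested.

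RPS2 was 1 of 4 mRNAs whose profile over the 12 libraries did not follow the family. For each member, log2 CPM was correlated with the median of the other 59 over the 12 libraries, as a description only. The 4 lay between -0.04 and 0.16 (Pearson r, n = 12 libraries) and the remaining 56 between 0.31 and 0.99, with a median of 0.86. The limit of 0.2 between them was chosen after seeing the values. Besides RPS2 they were ENSG00000125691 and ENSG00000166441 of the large subunit and ENSG00000168028 of the small subunit. These were also the 4 most abundant members by mean TPM, at 5400 for RPS2, 995 for ENSG00000166441, 886 for ENSG00000125691 and 478 for ENSG00000168028.

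The large subunit mRNA ENSG00000166441 had 21382, 639 and 3295 CPM in IgG medium, 2951, 873 and 4963 in FLAG medium, 514, 2785 and 5048 in IgG IL-17 and 710.3, 1291 and 4018 in FLAG IL-17. Its highest and lowest medium values both came from IgG libraries, so replicates of 1 group differed by more than any pair of group means. ENSG00000125691 had 17897, 579 and 2586 CPM in IgG medium, 2929.5, 679 and 3807 in FLAG medium, 469, 2011 and 3731 in IgG IL-17 and 657, 1285 and 3705 in FLAG IL-17. Its highest value was likewise in IgG medium replicate 1 and its lowest in IgG IL-17 replicate 1. The small subunit mRNA ENSG00000168028 had 18501, 734 and 3418 CPM in IgG medium, 2316, 1105 and 4014 in FLAG medium, 1599, 6748 and 15517 in IgG IL-17 and 1839.7, 4147 and 12839 in FLAG IL-17. Its replicate 3 was the highest of its group in 3 of the 4 groups, and FLAG and IgG libraries overlapped in both treatments. RPS2 itself held 8.21, 0.902 and 4.01% of all estimated counts in IgG medium and 3.95, 1.45 and 5.91% in FLAG medium. With IL-17 its shares were 0.555, 1.69 and 2.64% in IgG and 0.518, 0.726 and 2.20% in FLAG.

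**Figure D2:**
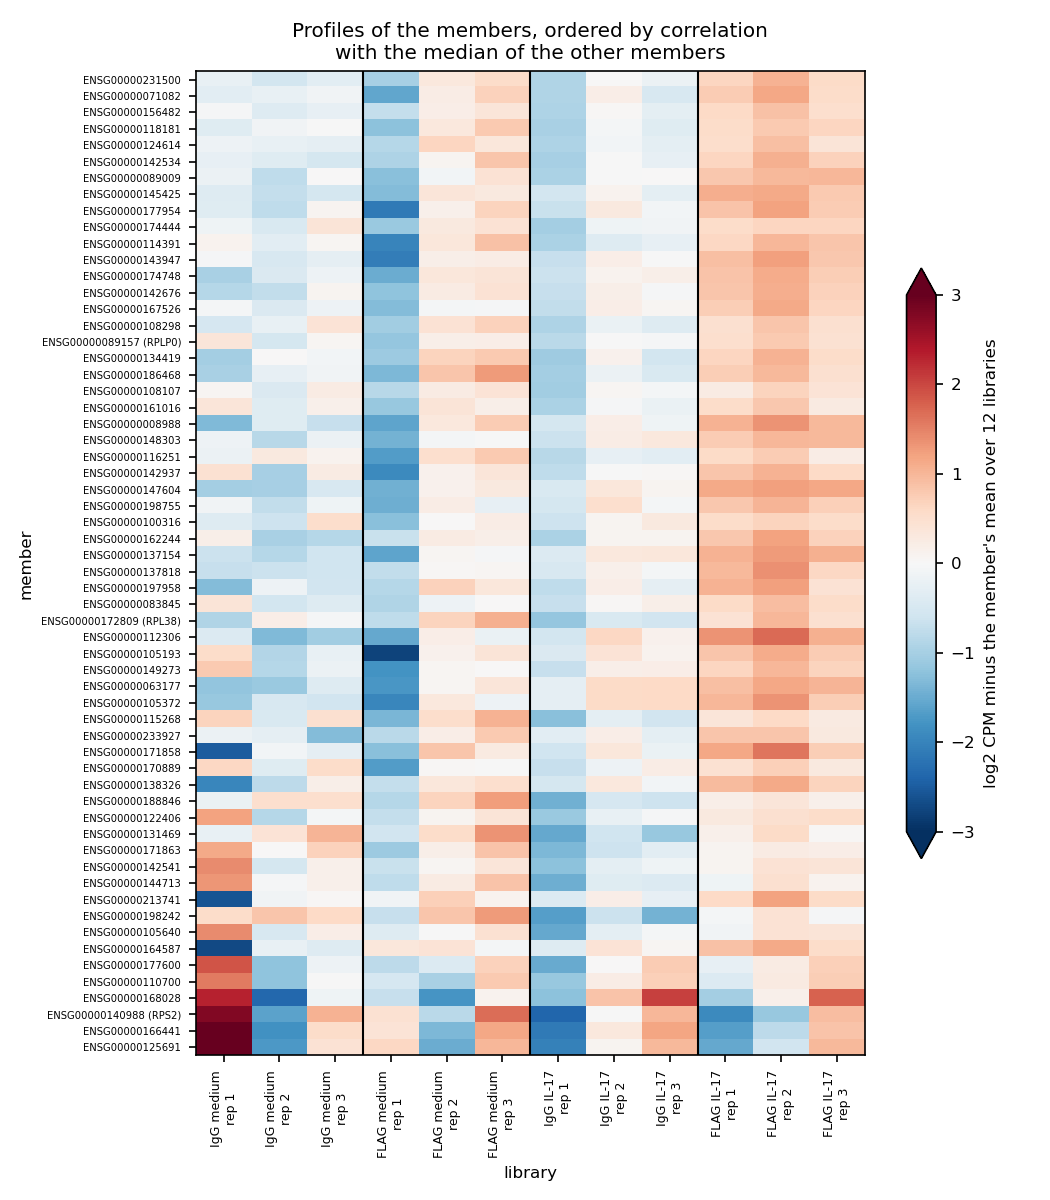
Deviation of each member's log2 CPM from its own mean over the 12 libraries (colour), with members in rows, from the highest to the lowest correlation with the median of the others, and libraries in columns, black lines separating the groups. Most rows are high in all 3 FLAG IL-17 libraries and low in FLAG medium replicate 1 and IgG IL-17 replicate 1, whereas the lowest 4 rows are high in IgG medium replicate 1; colours end at 3 log2 units.

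The other 56 mRNAs had similar profiles. Their median was 175, 158 and 182 CPM in IgG medium, 93.7, 273 and 303 in FLAG medium, 114, 212 and 185 in IgG IL-17 and 350.0, 423 and 298 in FLAG IL-17. All 3 FLAG IL-17 libraries lay above all 3 IgG IL-17 libraries. FLAG medium spanned the widest range, since its replicate 1 was the lowest of all 12 libraries. In TPM the same median was 22.1, 134 and 72.3 in IgG medium, 44.9, 185 and 73.8 in FLAG medium, 52.9, 35.3 and 21.0 in IgG IL-17 and 96.5, 72.1 and 28.8 in FLAG IL-17. On that scale all 4 groups overlapped with at least 1 other, and FLAG IL-17 replicate 3 lay below 2 of the IgG IL-17 libraries. With short features left out of the denominator the TPM median was 397, 354 and 264 in IgG IL-17 and 661, 504 and 304 in FLAG IL-17, which also overlapped.

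As a share of all estimated counts, the 56 held 1.18, 1.59 and 1.54% in IgG medium and 1.03, 2.26 and 1.99% in FLAG medium. They held 1.13, 1.24 and 0.944% in IgG IL-17 and 2.12, 2.15 and 1.29% in FLAG IL-17. The FLAG IL-17 libraries were again above all IgG IL-17 libraries, by a narrow margin for replicate 3. Group means were 1.44 ± 0.227%, 1.76 ± 0.648%, 1.11 ± 0.152% and 1.85 ± 0.487% (SD, n = 3 each), in the order IgG medium, FLAG medium, IgG IL-17 and FLAG IL-17. The other 4 held 0.947, 2.73 and 4.34% in IgG IL-17 and 0.846, 1.29 and 3.46% in FLAG IL-17, with FLAG and IgG overlapping. Over all 60, the share of counts was 2.08, 3.97 and 5.28% in IgG IL-17 and 2.97, 3.44 and 4.75% in FLAG IL-17. These overlapped, with means of 3.78% and 3.72%, so the separation was seen for the 56, a set chosen after the values were seen, and not for the whole family. In each of the IL-17 groups, replicate 3 had the largest share for the 4 and the smallest for the 56.

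**Figure D3:**
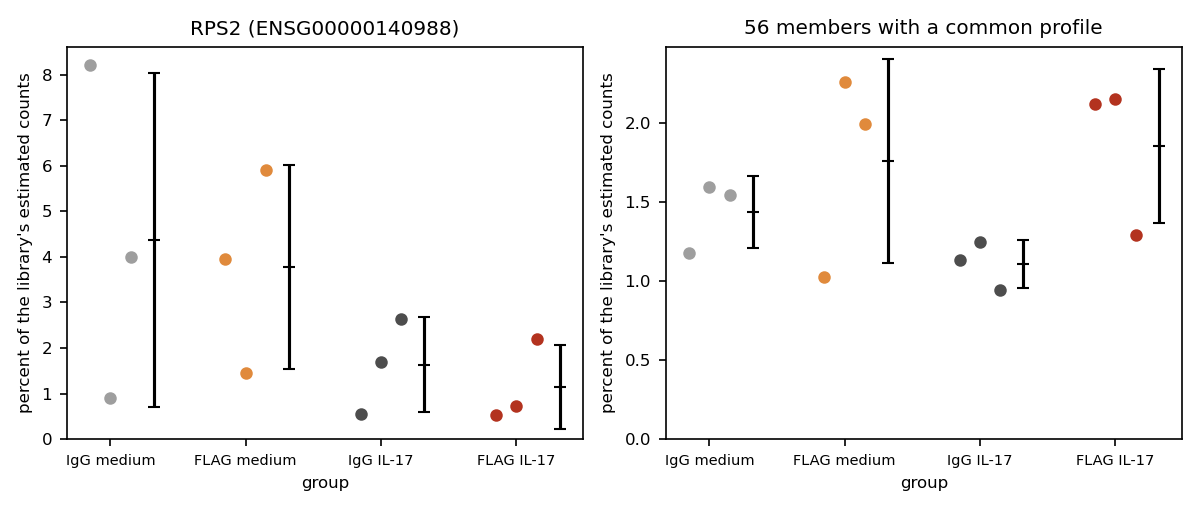
Share of each library's estimated counts held by RPS2 (left) and by the 56 mRNAs with a common profile (right), with 1 point per library and the mean ± SD of 3 libraries beside each group. The 56 held 1.29% to 2.15% in FLAG IL-17 and 0.944% to 1.24% in IgG IL-17, while RPS2 ranged from 0.902% to 8.21% within IgG medium.

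With IL-17, 56 of the 60 ribosomal protein mRNAs were more abundant in FLAG than in IgG precipitates. The median log2 fold change over the 60 was 0.99, or 1.99-fold, against -0.33 over all 24040 features tested, and 58 of the 60 lay above that median. With the stricter filter the medians were 0.79 over the 60 and -0.01 over all 13278 features kept. None of the single genes passed the test: edgeR's quasi-likelihood test called 0 of the 60 at an adjusted p under 0.05, and 0.0% of all features, and the smallest adjusted p among the 60 was 0.923. DESeq2 and limma also called 0 of the 60. At an unadjusted p under 0.05, 18 of the 60 were higher in FLAG, where 0.566% of all features were, and 0 were lower, where 2.25% were. The 3 FLAG libraries lay above the 3 IgG libraries for 53 of the 60, against 14.6% of all features. They lay below for 0, against 12.3%. Both subunits took part: 28 of 32 large and 25 of 28 small subunit mRNAs did not overlap, and the median log2 fold change was 0.98 over 30 large and 1.03 over 26 small subunit mRNAs without the 4 set apart.

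The count that did not overlap depended on the scale. On CPM without composition factors it was 26 of the 60, against 3.58% of all features, and on TPM 0, against 0.341%. With short features left out of the TPM it was 2, against 0.819%. The mean was nevertheless higher in FLAG for 55 of the 60 on plain CPM, 56 on TPM and 53 on TPM without short features. The median of all features moved from -0.33 to -0.70 (log2) without composition factors, while the median of the 60 moved from 0.99 to 0.77, so the family's median remained above that of all features.

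The number past an unadjusted p under 0.05 also depended on single libraries. It was 0 instead of 18 when replicate 1 of IgG IL-17 was left out (46 of 25956 features), and likewise for replicate 2 of FLAG IL-17 (32 of 28057). Leaving out IgG IL-17 replicate 3 gave 4 (43 of 28019). Leaving out replicate 3 of IgG medium gave 28 (278 of 29037), and leaving out the first FLAG medium library gave 36 (387 of 27246). It was 47 when only the IL-17 libraries were fitted. In that fit 2100 of 19349 features were higher at the same threshold and the smallest adjusted p among the 60 was 0.103. The median log2 fold change itself stayed between 0.67 and 1.07 when any 1 library was left out. Total counts were 5365500 to 15837800 in IgG IL-17 and 13653400 to 17723100 in FLAG IL-17, and the part of depth in this difference was not tested.

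RPL38 had the highest log2 fold change of the family in this comparison, 1.37 ± 0.55 (SE). Its values were 76.0, 125 and 115 CPM in IgG IL-17 and 233, 344 and 239.7 CPM in FLAG IL-17, so the lowest FLAG library lay above the highest IgG library. The fold was 2.58, with an unadjusted p of 0.0196 and an adjusted p of 0.923 by edgeR. The large subunit mRNA ENSG00000114391 followed with 119.8, 176 and 196 CPM in IgG IL-17 and 359, 466 and 412 CPM in FLAG IL-17. For it edgeR gave 1.33 ± 0.59 (SE) on the log2 scale, with an unadjusted p of 0.0326. RPLP0 had 509, 887 and 875 CPM in IgG IL-17 and 1257, 1527 and 1215 CPM in FLAG IL-17, again without overlap. The fitted log2 fold change was 0.82 ± 0.58 (SE), with an unadjusted p of 0.169.

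The 7 mRNAs whose libraries overlapped were the 4 set apart together with ENSG00000177600 and ENSG00000105640 of the large subunit and ENSG00000110700 of the small subunit. ENSG00000177600 had 196, 566 and 954 CPM in IgG IL-17 and 473, 671 and 917 CPM in FLAG IL-17. ENSG00000110700 had 79.2, 205 and 289 CPM in IgG IL-17 and 131, 211 and 292 CPM in FLAG IL-17. Both had among the lowest correlations with the family median outside the 4, at 0.42 and 0.31. The lowest log2 fold changes were those of ENSG00000166441, -0.47 ± 0.96 (SE), and ENSG00000168028, -0.34 ± 0.94 (SE). Both turned positive without IgG IL-17 replicate 3, to 0.06 and 0.35.

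**Figure D4:**
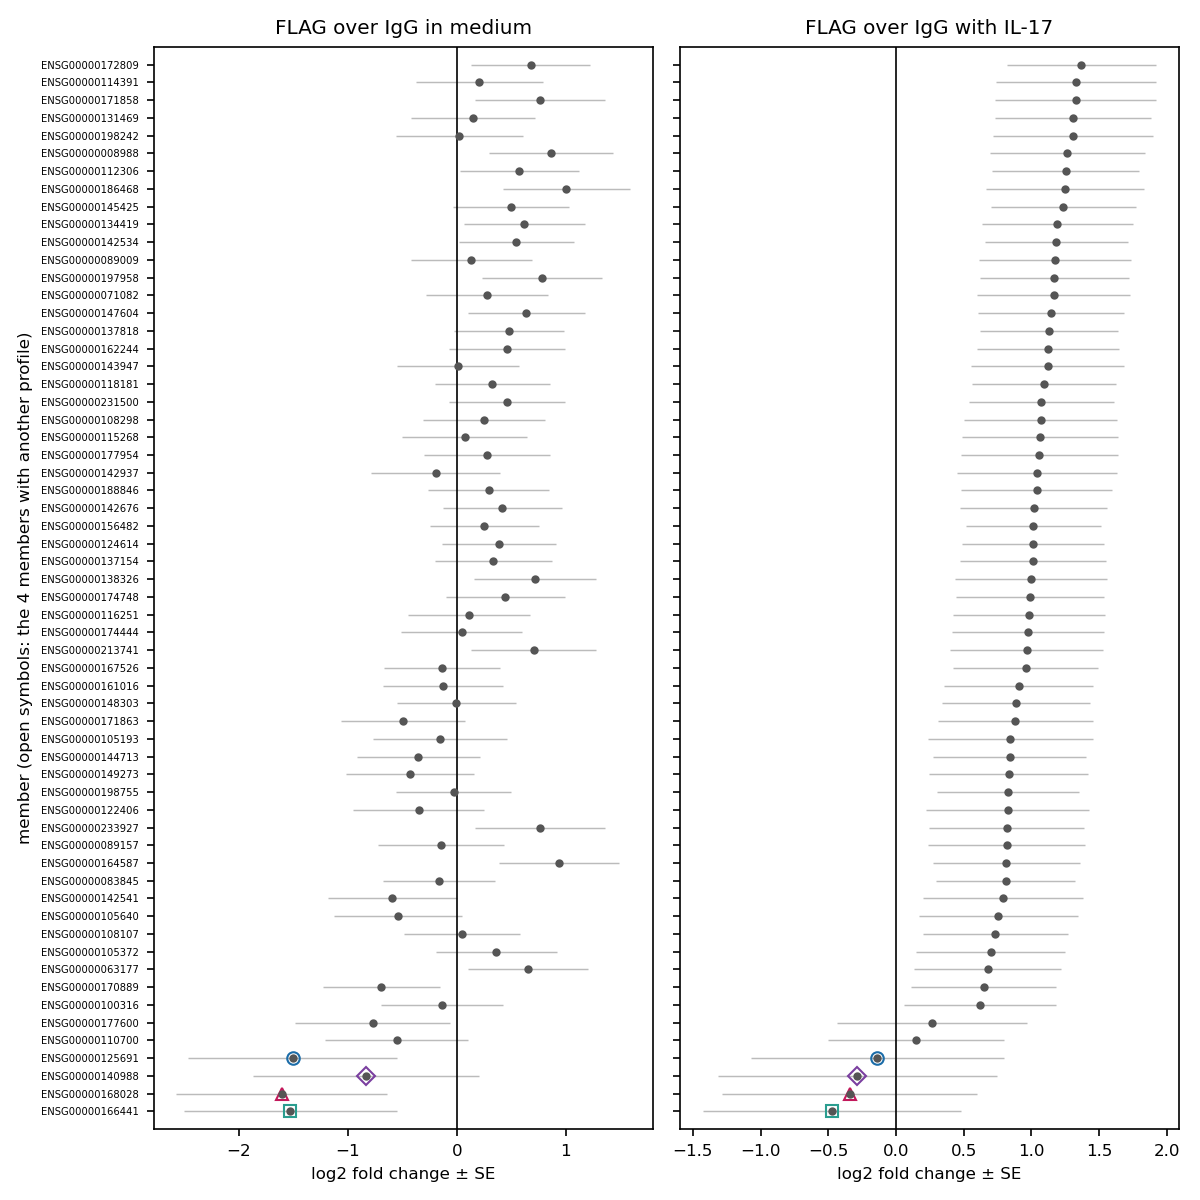
Log2 fold change of FLAG over IgG ± SE (edgeR, 3 libraries a group) for each of the 60 mRNAs in medium (left) and with IL-17 (right), in the same order, sorted by the value with IL-17; open symbols mark the 4 mRNAs with another profile. With IL-17 the 56 others lie between 0.15 and 1.37, while in medium the same 56 lie between -0.77 and 1.0 and the 4 reach down to -1.61; the 56 were chosen by their profile over these same libraries, so their position is a description.

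Without IL-17 the family's difference between FLAG and IgG was close to that of all features. In medium 38 of the 60 were higher in FLAG, and the median log2 fold change was 0.18, beside 0.20 over all features tested. edgeR called 0 of the 60 and 0.0% of all features, and the smallest adjusted p among the 60 was 0.841. At an unadjusted p under 0.05, 0 were higher (4.17% of all features) and 0 lower (2.4%). DESeq2 and limma also called 0 of the 60. Of all 48364 features DESeq2 called 162 higher (0.335%) and 90 lower (0.186%), and limma on log2(TPM + 0.1) called 1 of 24040 higher. At the same unadjusted threshold DESeq2 gave 4 members higher and 1 lower, beside 2054 and 1157 of 48364 features. Libraries did not overlap for 1 of the 60, higher in FLAG, against 5.07% of all features, and for 0 in the lower direction, against 1.11%. The median was 0.54 when FLAG medium lacked replicate 1 and -0.10 when it lacked replicate 3, so its direction rested on single libraries.

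The mRNA that did not overlap in medium was the small subunit ENSG00000164587, with 8.48, 49.7 and 44.1 CPM in IgG and 73.5, 76.7 and 55.2 CPM in FLAG. The log2 fold change came to 0.94 ± 0.55 (SE), with an unadjusted p of 0.0993. Its first IgG value rested on 4 estimated counts. The highest log2 fold change in medium was that of ENSG00000186468, also of the small subunit, at 1.0 ± 0.58 (SE). It had 104, 174 and 189.9 CPM in IgG and 80.1, 367 and 495 CPM in FLAG, where replicate 1 lay below all IgG libraries and the other 2 above. Without the 4 libraries that stand apart, 4 of the 60 were called higher in FLAG, ENSG00000186468 among them at a log2 fold change of 1.33, but this set 2 FLAG libraries against 1 IgG library that was assumed to vary like the others. In that fit 981 of all 28872 features (3.4%) were called higher, and the median log2 fold change was 0.59 over the 60 and 1.6 over all features. At an unadjusted p under 0.05, 20 of the 60 were then higher, as were 4150 of all features.

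At the low end in medium lay ENSG00000168028 at -1.61 ± 0.96 (SE), ENSG00000166441 at -1.53 ± 0.97 (SE) and ENSG00000125691 at -1.51 ± 0.96 (SE). IgG medium replicate 1 was by far the highest of the 6 medium libraries for all 3, as their values above show. Without that library the log2 fold changes of ENSG00000168028 and ENSG00000166441 were 0.16 and 0.47. RPS2 was at -0.83 ± 1.03 (SE), with 129925, 6243 and 39039.9 CPM in IgG and 26332, 10832 and 61318 CPM in FLAG. RPLP0 was at -0.15 ± 0.57 (SE), with 1147, 619.7 and 922 CPM in IgG and 399, 1009.6 and 1021 CPM in FLAG, and the libraries overlapped.

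The change of FLAG over IgG between IL-17 and medium was positive for 59 of the 60, with a median of 0.78 (log2) beside -0.52 over all features. With the stricter filter these medians were 0.60 and -0.10. For no member did the difference pass the test. edgeR called 0 of the 60 and 0.0% of all features, with a smallest adjusted p of 0.710 among the 60. At an unadjusted p under 0.05, 0 were higher, against 1.07% of all features, and 0 lower, against 6.28%. DESeq2 and limma also called 0 of the 60. Of all 48364 features DESeq2 called 15 higher (0.031%) and 168 lower (0.347%). The median standard error of this change by edgeR was 0.79, close to the median change itself. The largest were 1.38 ± 0.84 (SE) for ENSG00000142541 of the large subunit and 1.38 ± 0.80 (SE) for ENSG00000171863 of the small subunit, with unadjusted p of 0.11 and 0.098. The smallest was -0.12 ± 0.76 (SE) for ENSG00000164587, and ENSG00000063177 was at 0.03 ± 0.77 (SE). For RPLP0 it was 0.96 ± 0.81 (SE) and for RPL38 0.69 ± 0.77 (SE). The median fell to 0.15 without the 4 libraries that stand apart and to 0.17 with limma on TPM, so the size of the change was not stable.

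For ENSG00000142541, the groups were 1545, 399.9 and 649 CPM in IgG medium, 366, 605 and 747 in FLAG medium, 246, 472 and 528 in IgG IL-17 and 611, 789 and 757 in FLAG IL-17. ENSG00000171863 had 789, 366 and 579 CPM in IgG medium, 169.9, 408 and 650.0 in FLAG medium, 142, 233 and 289 in IgG IL-17 and 380.1, 429.7 and 414 in FLAG IL-17. In both, the lowest group was IgG IL-17, and its libraries lay below the FLAG IL-17 libraries.

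IL-17 against medium was compared within each antibody, with the FLAG and IgG comparisons sharing no library. Since the IL-17 libraries were also deeper on average, depth and treatment cannot be told apart here. In FLAG precipitates 52 of the 60 were higher with IL-17, and the median log2 fold change was 0.67, beside -0.29 over all features. With the stricter filter these medians were 0.35 and -0.04. edgeR called 0 of the 60, where 0.225% of all features were called, and the smallest adjusted p was 0.451. At an unadjusted p under 0.05, 10 were higher, against 3.05% of all features, and 0 lower, against 7.86%. Libraries did not overlap for 29 of the 60, all higher with IL-17 (17.3% of all features were), and for 0 lower (11.0%). DESeq2 called 4 of the 60 higher, and 173 of all 48364 features (0.358%), and limma 0 of the 60. Without the 4 libraries that stand apart, the median log2 fold change was 0.39 over the 60 and -0.10 over all features. The 10 became 3 without replicate 2 of FLAG IL-17 (275 of 28057 features) and 6 without its replicate 1 (324 of 28053). They became 4 when FLAG medium lacked replicate 1 (545 of 27246) and rose to 14 when IgG medium lacked replicate 3 (989 of 29037). Over all fits without 1 library the number ran from 3 to 14.

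The direction of this IL-17 difference depended on the scale. On TPM the mean was higher with IL-17 for 2 of the 60 in FLAG and for 2 in IgG. There limma on log2(TPM + 1) gave median log2 fold changes of -0.60 in FLAG and -0.80 in IgG, beside -0.45 and -0.21 over all features. On log2(TPM + 0.1) the median in FLAG was -0.62, above the -1.09 of all features. With short features left out of the TPM, the mean was higher with IL-17 for 27 of the 60 in FLAG and 27 in IgG. On CPM without composition factors it was higher for 37 in FLAG and 25 in IgG. On that scale 0 of the 60 in FLAG were higher without overlap, against 3.29% of all features. In the lower direction 1 was, against 15.7%. In FLAG the direction thus turned with the scale. In IgG fewer of the 60 were higher than lower on each of these scales.

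The small subunit mRNA ENSG00000112306 was the highest in FLAG, with 34.1, 115 and 87.2 CPM in medium and 254, 322 and 208 CPM with IL-17. The log2 fold change came to 1.73 ± 0.55 (SE), with an unadjusted p of 0.00416 and an adjusted p of 0.451 by edgeR. In IgG it had 74.2, 39.5 and 48.2 CPM in medium and 68.0, 153 and 108 CPM with IL-17, which overlapped. ENSG00000137154, also of the small subunit, had 95.4, 295 and 278 CPM in FLAG medium and 590.5, 688 and 599.6 CPM in FLAG IL-17. In IgG it had 182, 158 and 189.7 CPM in medium and 215, 353 and 362 CPM with IL-17, so that for both antibodies the IL-17 libraries lay above the medium libraries. On the log2 scale the difference was 1.49 ± 0.55 (SE) in FLAG and 0.81 ± 0.54 (SE) in IgG. In TPM the groups of both mRNAs overlapped.

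In IgG precipitates the family was divided in direction with IL-17. Of the 60, 29 were higher, and the median log2 fold change was -0.11, beside 0.18 over all features. edgeR called 0 of the 60, where 0.0125% of all features were called, and no adjusted p of the 60 was below 0.689. At an unadjusted p under 0.05, 1 was higher, against 3.79% of all features, and 4 were lower, against 1.78%. Libraries did not overlap for 5 of the 60 higher, against 9.69%, and for 6 lower, against 1.93%. Of the 6 lower, 5 belonged to the large subunit. DESeq2 called 5 of the 60 lower, and 218 of all 48364 features (0.451%), and limma 0 of the 60. The median turned positive, to 0.14 with 39 of the 60 higher, when IgG IL-17 lacked replicate 1, and to 0.05 with 32 higher when IgG medium lacked replicate 1. Without the 4 libraries that stand apart, which leaves 1 IgG medium library, it was 0.19, with 39 higher. That fit called 3 of the 60 higher and 2 lower, against 1191 (4.13%) and 440 (1.52%) of 28872 features, with a median of 2.17 over all features. The 4 lower became 1 without IgG IL-17 replicate 1. They became 10 without replicate 3 of IgG IL-17, or replicate 1 or 3 of FLAG IL-17, and 9 without replicate 2 of FLAG IL-17. The number was 8 when replicate 2 of IgG IL-17, replicate 2 of IgG medium, or replicate 1 or 3 of FLAG medium was left out, and 7 without replicate 3 of IgG medium. Over the fits without 1 library, 427 to 768 of all features were lower at this threshold.

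The lowest in IgG was the large subunit mRNA ENSG00000198242, with 977, 1181 and 1005 CPM in medium and 211, 428 and 247 CPM with IL-17. The fitted log2 fold change was -1.84 ± 0.60 (SE), with an unadjusted p of 0.0051 and an adjusted p of 0.689 by edgeR. All 3 IL-17 libraries lay below the medium libraries, on TPM as well, at 68.3, 657 and 245 in medium and 58.7, 43.2 and 18.4 with IL-17. In FLAG it had 414, 1182 and 1614 CPM in medium and 638, 899 and 656 CPM with IL-17, where replicate 1 of medium lay below the IL-17 libraries and the other 2 above them. With IL-17 it was therefore higher in FLAG than in IgG in all libraries, at a log2 fold change of 1.31 ± 0.59 (SE). ENSG00000063177 of the large subunit was the highest in IgG, with 40.3, 41.9 and 69.5 CPM in medium and 76.1, 137 and 139 CPM with IL-17. The log2 fold change came to 1.20 ± 0.55 (SE) in IgG and 1.23 ± 0.55 (SE) in FLAG.

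RPS2 had the lowest log2 fold change with IL-17 in FLAG, -0.99 ± 1.04 (SE), and -1.54 ± 1.05 (SE) in IgG. Its CPM was 26332, 10832 and 61318 in FLAG medium and 5060.5, 8631 and 35891 in FLAG IL-17, which overlapped widely. ENSG00000125691 was at -1.76 ± 0.96 (SE) in IgG, again with overlapping libraries. In TPM, by contrast, all 3 IL-17 libraries lay below all 3 medium libraries for RPS2 with either antibody, as they did for ENSG00000125691.

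At the other end of abundance lay ENSG00000233927, ENSG00000164587 and ENSG00000162244, with mean TPM of 11.7, 14.3 and 26.0. The small subunit mRNA ENSG00000233927 had 19.1, 17.9 and 8.46 CPM in IgG medium, 12.2, 24.9 and 37.6 in FLAG medium, 17.1, 24.9 and 17.4 in IgG IL-17 and 38.9, 39.0 and 26.6 in FLAG IL-17. Its FLAG IL-17 libraries lay above its IgG IL-17 libraries, by little for replicate 3. The large subunit mRNA ENSG00000162244 had 49.9, 103 and 103 CPM in IgG IL-17 and 171, 227 and 159 CPM in FLAG IL-17, without overlap, and a log2 fold change of 1.12 ± 0.52 (SE). The difference in CPM between FLAG and IgG with IL-17 was thus also seen at the low end of the family. Outside the 4 set apart, mean TPM ranged 21.0-fold from the lowest to the highest member.

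Within the family, the order of levels was similar between libraries. Over the 56 mRNAs, Spearman's rho of TPM between 2 libraries ran from 0.491 to 0.968 over the 66 pairs of libraries, with a median of 0.757. Pairs with IgG medium replicate 1 ran from 0.491 to 0.809, and those without it from 0.618 to 0.968. Genes are not independent replicates, and all libraries share the annotation and its transcript lengths. The median TPM of large over that of small subunit mRNAs among the 56 was 1.78, 1.68 and 1.54 in IgG medium and 1.62, 1.28 and 1.15 in FLAG medium. It was 1.27, 1.28 and 1.24 in IgG IL-17 and 1.20, 1.25 and 1.38 in FLAG IL-17. Among the 56, which leave out RPS2 and the others set apart, the median of large subunit mRNAs was thus higher in every library. The 4 highest ratios were those of the IgG medium libraries and FLAG medium replicate 1.

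Ribosomal protein genes share sequence with many pseudogenes, of which the RefSeq annotation lists 1966, and the estimated counts divide reads between such copies. Of the 720 values of the family, 68.1% had a decimal part (a tolerance of 0), against 18.0% of all values above 0. Counting only values more than 0.05 from the nearest whole number, a limit chosen after seeing the data, gave 59.2% and 15.9%. At a tolerance of 0, for 13 members no library had a whole number, and for 6 every library did. RPS2 was not whole in 11 of 12 libraries and RPLP0 in 12, whereas ENSG00000063177 was whole in all. Levels of the members with divided reads are therefore uncertain.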

How the data were processed

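RNA immunoprecipitation libraries of HK2 cells were analysed, 12 in all, grouped by antibody and treatment from the sample titles. The authors deposited estimated counts per Ensembl gene and a table named for FPKM whose columns each sum to 1000000, so its deposited values were treated as TPM. The builds GRCh38 and hg38 and the tools RSEM 1.3.1, STAR 2.7.9, R 4.2.0 and DESeq2 1.36.0 appear, without roles, per the submitters' processing notes. The sources used here do not state whether counting used strand.

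Counts were rounded, filtered with filterByExpr (minimum count 10) and scaled by TMM. With edgeR 4.0.16 (R 4.3.3), 1 quasi-likelihood model of 4 groups was fitted to the 12 libraries, giving 5 comparisons. The filter kept 24040 features, all 60 members among them. Benjamini-Hochberg adjustment ran over all 24040, and a feature was called when its adjusted p was under 0.05. All libraries shared a common dispersion of 0.953. The procedure was run on simulated data in which all features shared 1 dispersion, either this one or a lower one. Recovery of changes was required only at the lower one, so power at the spread of these libraries was not shown. Total estimated counts ran from 746911 to 17723100. A count of 0 would allow 4.02 CPM in the shallowest and 0.169 CPM in the deepest library, from a floor of 3 counts, for counting error only. These limits use total counts without composition factors. With TMM, 2 counts of ENSG00000213741 in the shallowest library came to 4.24 CPM, so the limit there lies higher on that scale. Relative length is estimated count over TPM, scaled within each library, with 1 at the median over tested features.

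The members and lists were chosen with earlier results of these data known. Named members are RPLP0 and RPS2, the 3 with the highest and the 3 with the lowest mean TPM, and in each comparison those with the 2 highest and the 2 lowest log2 fold changes, 17 in all. ENSG00000177600 and ENSG00000110700 are outside this rule and were chosen after their values were seen. The reference pairs no Ensembl identifier with a symbol (0 matched), so the lists of other translation genes, the cell type markers and the transfected gene were not read. Alternatives were scaling by library size alone, by RLE or by upper quartile, a stricter filter (50 counts in 3 libraries) or none, and the tools DESeq2 1.42.0 and limma 3.58.1, the latter on log2(TPM + 0.1) and log2(TPM + 1). Others were a replicate block, fits of the compared groups alone, and leaving out libraries.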

Additional observations from a re-analysis of the deposited data

How the results depend on the processing

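The 60 mRNAs kept a positive median log2 fold change of FLAG over IgG with IL-17 under every alternative run, from 0.71 to 1.05, and from 0.67 to 1.07 when any 1 library was left out. The number past an unadjusted p under 0.05, 18 as reported, was 29 with RLE factors, 0 with library size only, 3 with upper quartile factors, 30 without a filter, 29 with a strict filter, 31 with DESeq2, 0 with limma on either log2(TPM) scale, 47 with only the groups compared and 48 without the 4 libraries that stand apart. Of 24040 features, 144 were higher at this threshold with RLE factors, 31 with library size only and 49 with upper quartile factors. It was 254 of 48364 without a filter, 181 of 13278 with the strict filter and 243 of 48364 with DESeq2. With limma it was 4 on log2(TPM + 1) and 5 on log2(TPM + 0.1), of 24040. With only the groups compared it was 2100 of 19349. The members' numbers therefore cannot be compared directly across settings. Leaving out single libraries gave 0 to 36 members. In medium, leaving out those 4 libraries called 4 members higher (981 of 28872 features). For IL-17 over medium in FLAG, DESeq2 called 4 higher (173 of 48364 features) and the same 4 libraries left out gave 3 higher (464 of 28872). In IgG, DESeq2 called 5 lower (218 of 48364), and without the 4 libraries, which leaves 1 IgG medium library, 3 were called higher and 2 lower (1191 and 440 of 28872). The median change of enrichment was 0.17 with limma on both scales and 0.15 without the 4 libraries. Median IL-17 effects with limma on log2(TPM + 1) and log2(TPM + 0.1) were -0.80 and -0.81 in IgG and -0.60 and -0.62 in FLAG. Over all features they were -0.21 and -0.19 in IgG and -0.45 and -1.09 in FLAG. The cause was not tested.

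The labels do not say whether equal replicate numbers pair an IgG with a FLAG library, and the main fit did not pair them. Deviations of same-numbered libraries from their group means correlated between -0.119 and 0.369, not above 0.1 in every pair. They were highest for replicate 3, at 0.287 in medium and 0.369 with IL-17. Such correlations over all features cannot settle whether the libraries were paired. With the replicate block, 30 members were higher at the unadjusted threshold for FLAG over IgG with IL-17, as were 294 of 24040 features. In that fit 0 members were called in any comparison. For IL-17 over medium it called 25 features higher and 8 lower in IgG, and 99 higher and 37 lower in FLAG.

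The members' mean share of estimated counts was 7.44% in IgG medium, 6.47% in FLAG medium, 3.78% in IgG IL-17 and 3.72% in FLAG IL-17. Without features of a relative length under 0.05, their share of TPM was 10.8%, 10.2%, 5.84% and 4.77%. Of all TPM, with the short features included, the 56 members outside the 4 set apart held 0.532%, 0.642%, 0.211% and 0.358%. The denominator without short features, the set of 56 and the other scales for libraries that do not overlap were chosen after seeing the data. A planned limit of 200 bases was not run, because count over TPM gives only relative lengths. In IgG medium replicate 1 depth limited 5 members to fewer than 20 counts.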
